A study of Mus musculus with 14 samples.

Results

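The genes Pde3b, Pde4a, Pde4b, Pde4d and Pde7a encode phosphodiesterases that break down cyclic AMP (cAMP), and the accessibility of chromatin around these 5 genes was followed in Treg cells after Foxp3 degradation. The count table divides the open chromatin of these cells into 240778 windows of one fixed width, whose coordinates (GRCm38) are given here as the table writes them. A window belonged to one of the 5 genes if a listed start site of that gene was the nearest protein-coding start site to the window's centre and lay within 100 kb. This gave 230 windows, 47 at Pde3b, 30 at Pde4a, 64 at Pde4b, 39 at Pde4d and 50 at Pde7a. The outermost window inside the limit lay 77.0 kb from a Pde4d start and held 0.738 ± 0.347 CPM (read counts scaled to library size, SD, n = 14), and the first one beyond it lay 121 kb from a Pde4d start and held 0.868 ± 0.298 CPM.

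ATAC-seq, which reads out where a transposase can cut DNA and so which chromatin is open, was performed on 50000 Treg cells per library from the spleen and lymph nodes of 14 mice. Every mouse carried the Foxp3-AID allele, in which Foxp3 is fused to an auxin-inducible degron and is expressed together with the ZsGreen reporter and Cre recombinase, and every mouse was given the degrader ligand 5-ph-IAA. The mice differed at ROSA26. In Foxp3-AID ROSA26-TIR1(F74G) mice, here R26TIR1(F74G), Cre switches on the TIR1(F74G) ligase and mCherry in cells that express Foxp3, so that the ligand drives Foxp3 degradation, whereas Foxp3-AID ROSA26-WT mice, here R26WT, lack the ligase and served as controls. The ligand was given for 3 days (4 mice of each genotype) or 7 days (3 mice of each genotype). The sort for reporter-positive cells took ZsGreen+ cells in R26WT and cells that were also mCherry+ in R26TIR1(F74G), so the gates were not identical. The labels give no age, sex or activation state for these mice, and they do not name litters or sort days. Mouse names begin with AC or E, and on both days more R26TIR1(F74G) than R26WT mice had E. What the prefix stands for is not given. Degradation acts on the protein, so the depletion of Foxp3 itself cannot be checked in these data.

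Cyclic AMP is made by adenylyl cyclases below Gs-coupled receptors such as the adenosine and prostaglandin E receptors, and it acts through protein kinase A, the Epac exchange factors and the CREB family of transcription factors. Phosphodiesterases end the signal by hydrolysing cAMP. PDE3B is the dual-specificity, cGMP-inhibited member of the group, PDE4A, PDE4B and PDE4D are cAMP-specific and sensitive to rolipram, and PDE7A is cAMP-specific and insensitive to it. Treg cells are known for high cAMP, which they can pass to conventional T cells, and Pde3b is known as a gene that Foxp3 represses. The comparisons asked whether chromatin around these genes opened or closed once Foxp3 was degraded.

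Between 5653289 and 20184487 counts fell in the windows of a library. The shallowest libraries were an R26TIR1(F74G) mouse of day 3 and an R26WT mouse of day 7 (6348754 counts). No pair of libraries held identical values. Start-site windows were found for 4 of 6 Treg cell genes and for 4 of 4 T cell genes, with summed accessibility of 38.5 to 51.9 CPM and 24.0 to 36.3 CPM over the 14 mice. Foxp3 and Tnfrsf18 had no window within 1 kb of a start. Of the 4 B cell genes only Ebf1 had such a window (0.826 to 2.16 CPM), 2 of 4 myeloid genes did (summed 1.72 to 3.10 CPM), and neither NK cell gene (Ncr1 and Klrb1c) did. Of the CD8 genes, Cd8b1 held 12.5 CPM at its start and Cd8a 1.33 CPM. The summed T cell windows of the genotypes did not overlap on day 3, with 34.1 to 36.3 CPM in R26WT and 24.0 to 33.3 CPM in R26TIR1(F74G). They overlapped on day 7 (30.0 to 34.2 against 29.6 to 32.4 CPM). The summed Treg cell windows overlapped on day 3 (45.0 to 51.1 CPM in R26WT against 38.5 to 50.2 CPM in R26TIR1(F74G)). How many other sets of genes separate in this way was not counted.

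Of the 230 windows, 153 lay inside the gene they were assigned to and 62 upstream of it, 42 lay within 1 kb of a listed start and 91 within 10 kb. Neighbouring windows often overlap and then count the same reads. Merged, the 230 windows formed 140 regions, of which 91 held a single window, so windows of one gene are not independent measurements. Pde4b had no window upstream of the gene and Pde4d had none within 1 kb of its start. A window held 24.5 counts per library in the median, close to the 25.9 of all windows in the table.

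**Figure D1:**
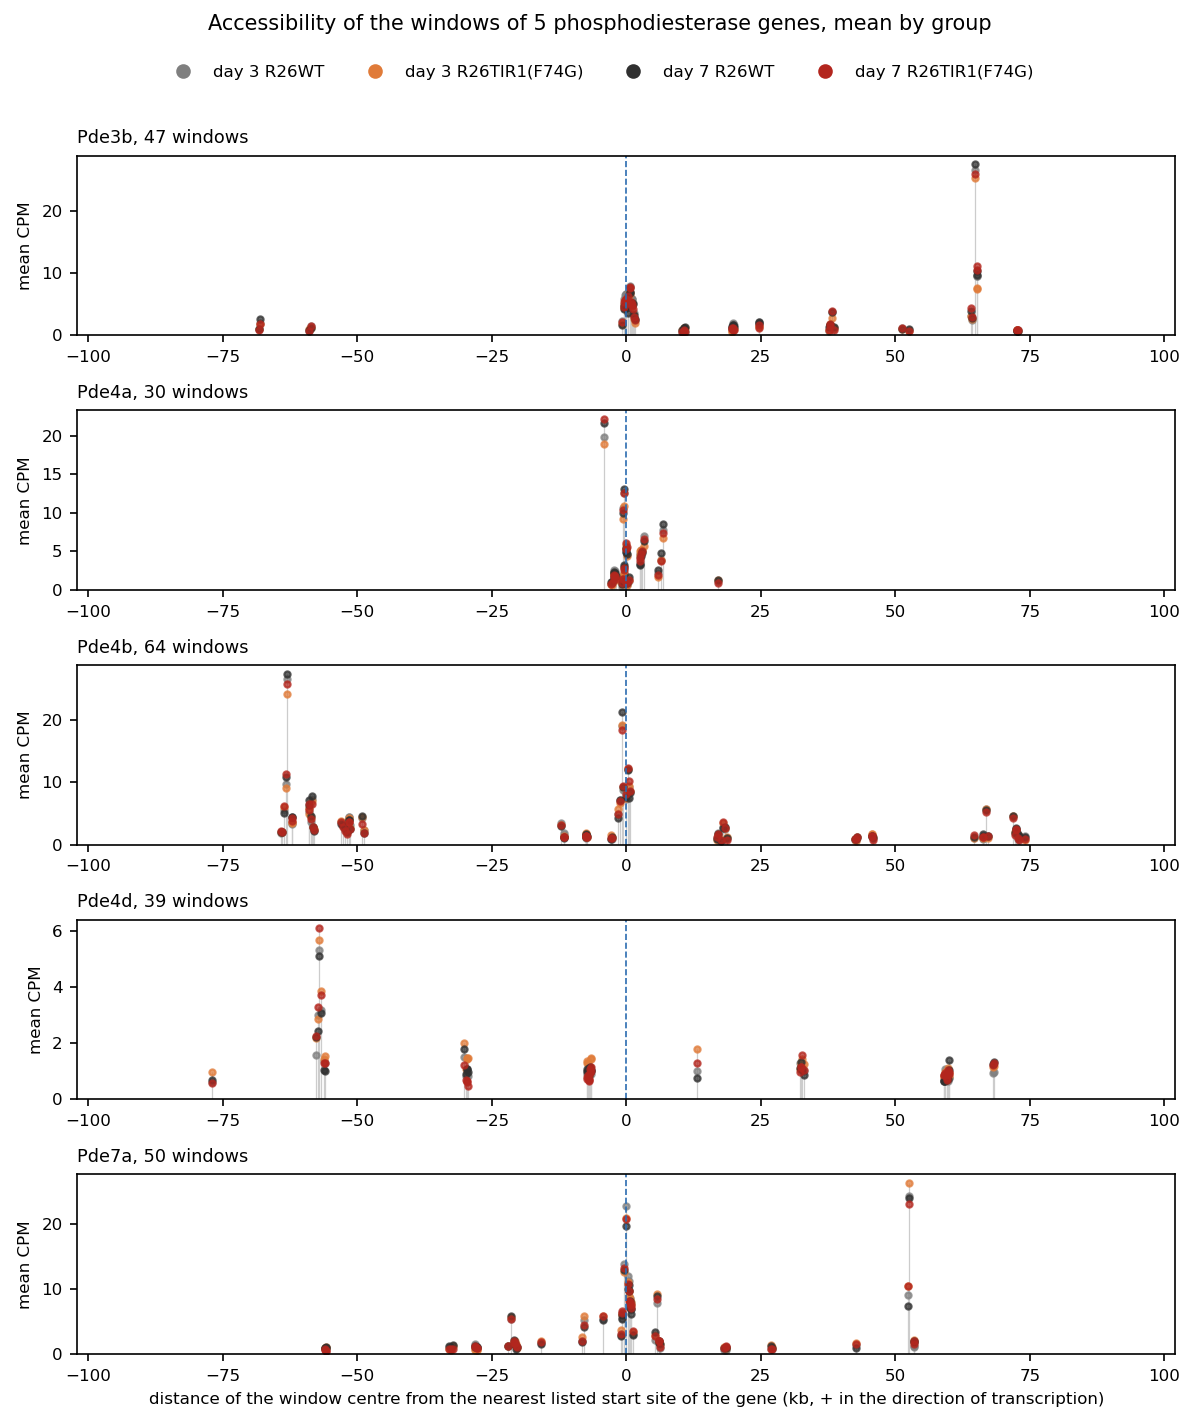
Mean accessibility (CPM after TMM scaling) of each window at the 5 genes, plotted against the distance of its centre from the nearest listed start site of the gene in kb, one panel per gene and one point per group mean (4 mice per genotype on day 3, 3 on day 7); the dashed line marks the start. The highest windows of Pde3b and Pde4b lay 64.7 kb downstream and -63.0 kb from the start, respectively, and the highest Pde4d window averaged 5.55 CPM.

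RefSeq listed promoter sequence (GRCm38.p6) at 8 starts of Pde4a, Pde4b and Pde4d. Pde3b and Pde7a had no entry in the table used here. Pde4b is shown at all 4 of its listed starts because a single one of them had windows nearby. The start at base 102570060 of chromosome 4 had 6 windows within 1 kb, the nearest with 7.60 ± 0.826 CPM (SD, n = 14), whereas the other Pde4b starts had none, their nearest windows lying 64.7, 2.7 and 5.0 kb away. Pde4a is shown at its 5-prime end, and Pde4d at its only listed start, as counterparts with and without windows at the start. The Pde4a 5-prime end had 2 windows within 1 kb, and the window nearest to the Pde4d start was centred 6.5 kb away and held 1.10 ± 0.510 CPM (SD, n = 14). The sequences below are the 250 bases before each start on the + strand, in the direction of transcription. Capitals mark matches to TTTGTTTGTTTG, a repeat of the kind Foxp3 can bind, and to TGACG, one arm of the cAMP response element.
Pde4b start 102421555, chr4:102421305-102421554: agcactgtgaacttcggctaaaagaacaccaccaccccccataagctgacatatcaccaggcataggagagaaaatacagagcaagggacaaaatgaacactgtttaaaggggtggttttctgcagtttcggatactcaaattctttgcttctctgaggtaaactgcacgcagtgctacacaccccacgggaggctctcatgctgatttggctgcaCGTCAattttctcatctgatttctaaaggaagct
Pde4b start 102570060, chr4:102569810-102570059: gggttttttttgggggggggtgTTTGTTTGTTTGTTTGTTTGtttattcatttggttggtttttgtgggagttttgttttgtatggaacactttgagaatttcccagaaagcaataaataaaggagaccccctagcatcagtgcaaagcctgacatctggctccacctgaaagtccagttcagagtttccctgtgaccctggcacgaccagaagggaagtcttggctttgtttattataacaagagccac
Pde4b start 102587558, chr4:102587308-102587557: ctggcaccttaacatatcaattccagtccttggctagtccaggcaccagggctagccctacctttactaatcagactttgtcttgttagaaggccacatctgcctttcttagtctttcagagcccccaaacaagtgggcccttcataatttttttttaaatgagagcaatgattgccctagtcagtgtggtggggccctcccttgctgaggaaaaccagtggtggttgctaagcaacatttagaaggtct
Pde4b start 102589843, chr4:102589593-102589842: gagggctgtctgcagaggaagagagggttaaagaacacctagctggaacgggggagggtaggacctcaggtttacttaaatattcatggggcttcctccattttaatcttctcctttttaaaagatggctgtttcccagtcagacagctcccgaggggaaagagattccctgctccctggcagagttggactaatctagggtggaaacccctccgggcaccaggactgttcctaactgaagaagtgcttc
Pde4a start 21165714, chr9:21165464-21165713: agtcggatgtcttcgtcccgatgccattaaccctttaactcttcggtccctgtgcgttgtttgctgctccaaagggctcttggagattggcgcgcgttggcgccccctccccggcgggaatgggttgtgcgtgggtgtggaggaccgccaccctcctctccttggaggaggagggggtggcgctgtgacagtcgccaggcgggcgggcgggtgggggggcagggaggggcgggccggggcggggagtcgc
Pde4d start 108654177, chr13:108653927-108654176: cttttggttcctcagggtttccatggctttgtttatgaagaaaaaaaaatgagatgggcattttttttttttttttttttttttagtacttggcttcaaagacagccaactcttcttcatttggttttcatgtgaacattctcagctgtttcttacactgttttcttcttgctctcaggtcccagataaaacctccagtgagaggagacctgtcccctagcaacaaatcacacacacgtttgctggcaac

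The Pde4b promoter at 102570060 held 3 overlapping matches to TTTGTTTGTTTG, beginning 228, 224 and 220 bases before the start, where 0.508% of the 21262 protein-coding promoters of the same length held this sequence on either strand. No other listed promoter of the 3 genes held it. The arm TGACG, present in 20.2% of promoters and contained in the full element, occurred on the - strand (read on the + strand as CGTCA) of the Pde4b promoter at 102421555 and in a further Pde4a promoter. Neither the full cAMP response element TGACGTCA (1.92% of promoters) nor the forkhead sequence TGTTTAC (2.62%) was found in any of the 8. In base composition this Pde4b promoter (43.2% GC, 1 CpG dinucleotide) and the Pde4a 5-prime end (68.8% GC, 22 CpG dinucleotides) lay on either side of the median promoter (55.6% GC, 10 CpG dinucleotides), and the Pde4d promoter had 38.8% GC and 1 CpG dinucleotide.

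Averaged over its windows, Pde7a was the most accessible of the 5 genes, with 4.26 ± 0.264 CPM per window (SD, n = 14), followed by Pde4a with 4.03 ± 0.286, Pde4b with 3.85 ± 0.202 and Pde3b with 3.51 ± 0.291 CPM. Each of these genes overlapped in range with its neighbour in the order. Pde4d stood below all of them over its assigned windows, with 1.29 ± 0.236 CPM per window, and did so in 14 of 14 mice. All windows have the same width, so these levels need no length correction.

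At the start sites the order was more spread out. The window at the Pde7a start (chr3:19311277-19311478, centred -55 bases from the start) held 21.1 ± 2.54 CPM (SD, n = 14). That at the Pde4a 5-prime end (chr9:21165101-21165302, -499 bases) held 12.2 ± 2.14 CPM (SD, n = 14). The window at the open Pde4b start (chr4:102569946-102570147, -14 bases) held 7.60 ± 0.826 CPM (SD, n = 14). That at the Pde3b start (chr7:114415060-114415261, -62 bases) held 5.72 ± 1.16 CPM (SD, n = 14). Pde7a exceeded Pde4a in every mouse without overlap in range, whereas the ranges of Pde4a and Pde4b, and of Pde4b and Pde3b, overlapped. The other windows within 1 kb of the open Pde4b start averaged 8.53 to 19.5 CPM. The other window near the Pde4a 5-prime end averaged 10.0 CPM. The place of Pde4b below Pde4a therefore depends on the window taken. The Pde4a window chosen by the rule for named windows sat at a downstream start (chr9:21196606-21196807) and held only 0.899 ± 0.392 CPM (SD, n = 14), so the 5-prime end window was added outside that rule. The most accessible windows lay away from the starts in every gene. They held 26.3 ± 3.30 CPM (SD, n = 14) at Pde3b, inside the gene and 64.7 kb from the start, 26 ± 2.56 CPM (SD, n = 14) at Pde4b, 24.5 ± 3.41 CPM (SD, n = 14) at Pde7a, 20.5 ± 3.72 CPM (SD, n = 14) at Pde4a, and 5.55 ± 0.890 CPM (SD, n = 14) at Pde4d, there upstream of the gene. The first 3 overlapped in range, as did Pde7a and Pde4a, and Pde4d again lay below the others. Both orders cover assigned windows only. Of the 183 windows inside the Pde4d gene, 166 were not assigned to it, and a window among them averaged 11.2 ± 2.92 CPM (SD, n = 14).

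**Figure D2:**
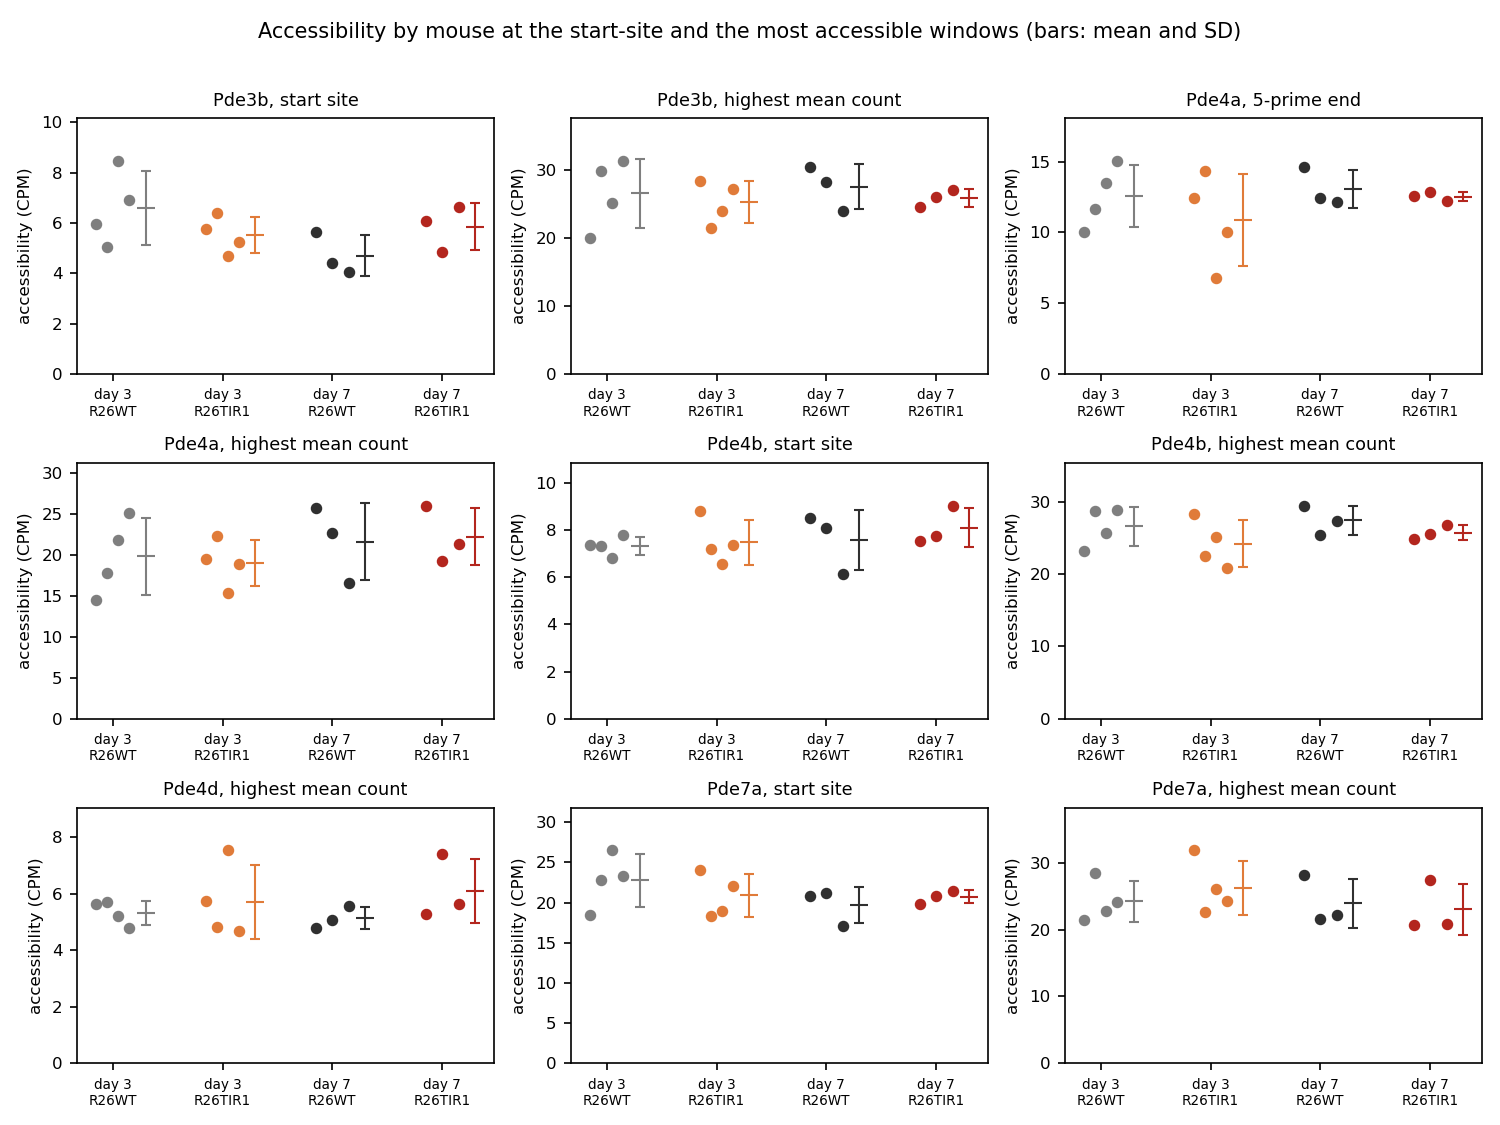
Accessibility (CPM) by mouse at the start-site window and at the window of highest mean count of each gene, for Pde4a at its 5-prime end and for Pde4d at the highest window alone; points are mice by genotype and day and bars give the mean and SD (4 mice per genotype on day 3, 3 on day 7). R26TIR1(F74G) and R26WT overlapped on both days in all 9 panels.

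Foxp3 degradation was not followed by a detectable change at any window of the 5 genes. In R26TIR1(F74G) against R26WT on day 7, 0 of 228 windows tested passed an adjusted p of 0.05 by edgeR's quasi-likelihood test, and by DESeq2 none did either (1 was higher and 1 lower at an unadjusted p under 0.05 there). Of all windows, 0.00463% passed by edgeR and none by DESeq2, where 2802 of 237811 were higher and 3565 lower unadjusted. At an unadjusted p under 0.05 in edgeR, 4 windows were higher (1.75%, against 2.75% of all windows) and 7 lower (3.07%, against 3.2%). The mice of the genotypes did not overlap at 14 windows with every R26TIR1(F74G) mouse higher (6.14%, against 5.81% of all windows) and at 17 with every one lower (7.46%, against 6.02%). These shares were near those of the whole table.

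On day 3, edgeR and DESeq2 likewise called 0 of 226 windows, and 0% of all windows passed in edgeR. DESeq2 had 3 higher and 8 lower at an unadjusted p under 0.05, beside 5747 and 6015 of all 235515 windows. By edgeR's unadjusted p, 4 were higher (1.77%, against 3.93%) and 10 lower (4.42%, against 3.62%). Genotypes did not overlap at 2 windows higher (0.885%, against 2%) and 3 lower (1.33%, against 2.11%). With both days in one fit and day as a term, edgeR again called 0 of 230 windows, where it called 0.0112% of all windows. DESeq2 gave an adjusted p to 29 of them and called none, with 5 higher and 10 lower unadjusted. Of all 240778 windows, DESeq2 called 25 higher and 130 lower, and had 6425 higher and 7728 lower unadjusted. Unadjusted in edgeR, 6 were higher (2.61%, against 3.16%) and 11 lower (4.78%, against 3.57%). The smallest adjusted p of any member was 0.469 over both days, 0.724 on day 7 and 0.518 on day 3. In bulk ATAC-seq, fewer cells with an open window and less opening per cell cannot be told apart.

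The precision of these comparisons at the more accessible windows can be read from the 73 of 230 with at least 50 counts on average. Their log2 fold changes over both days ran from -0.43 to 0.33, and the outermost bounds of their 95% intervals were 1.62-fold lower and 1.55-fold higher. On a single day the bounds were wider, 1.82-fold lower and 1.75-fold higher on day 7 and 1.93-fold lower and 1.66-fold higher on day 3. Of these 73 windows, 2 were at Pde4d. Named windows of few counts had wider intervals, given below, and these bounds do not cover them. Median log2 fold changes were -0.01 for the 228 windows tested on day 7, 0.04 for the 226 tested on day 3 and 0.00 for all 230 over both days, beside -0.01, 0.01 and 0.00 for all windows.

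**Figure D3:**
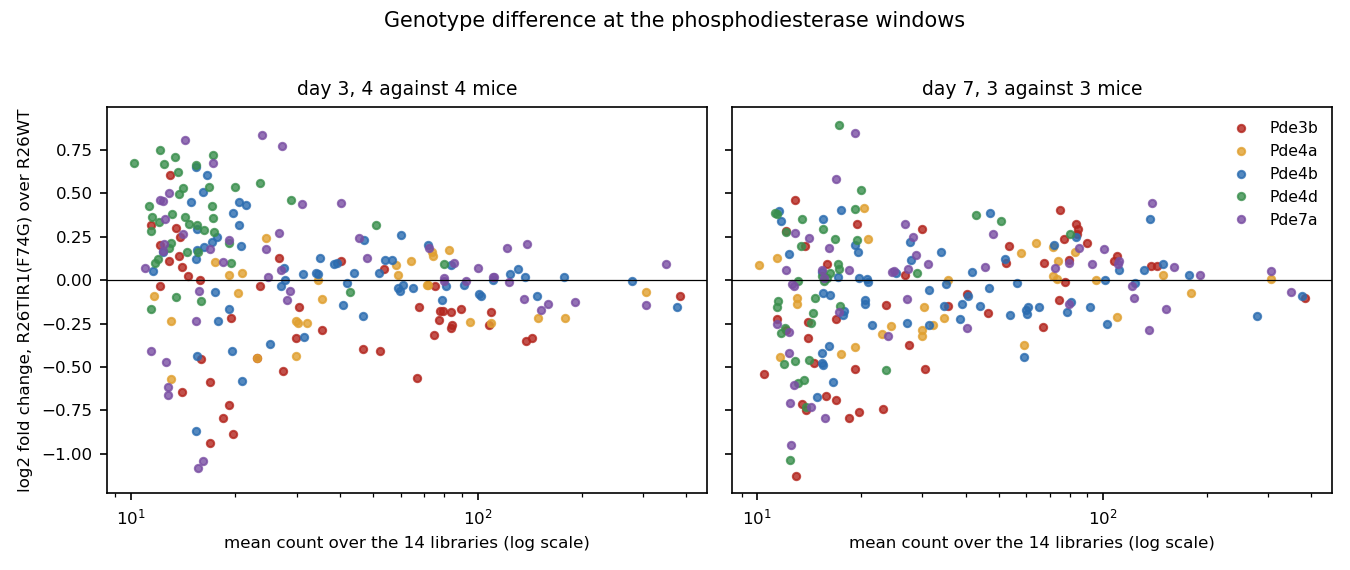
Log2 fold change of R26TIR1(F74G) over R26WT at every window of the 5 genes on day 3 (left, 4 against 4 mice) and day 7 (right, 3 against 3 mice), plotted against the mean count over the 14 libraries on a log scale; colours are genes. On day 3, Pde3b points lay mostly below 0 (33 of 46) and Pde4d points mostly above it (35 of 39), and on both days the spread narrowed with the count.

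Pde3b, the member known to be repressed by Foxp3, had no detectable difference between genotypes at its start. On day 3 it held 5.97, 5.03, 8.47 and 6.90 CPM in the R26WT mice and 5.75, 6.38, 4.70 and 5.23 CPM in the R26TIR1(F74G) mice. On day 7 the values were 5.62, 4.42 and 4.05 CPM in R26WT and 6.10, 4.83 and 6.63 CPM in R26TIR1(F74G). The genotypes overlapped on both days, R26TIR1(F74G) being lower in mean on day 3 (5.52 ± 0.723 against 6.59 ± 1.47 CPM, SD) and higher on day 7 (5.85 ± 0.924 against 4.70 ± 0.822 CPM). The log2 fold change was -0.02 (95% interval -0.28 to 0.24, adjusted p = 0.991) over both days, -0.26 (95% interval -0.60 to 0.09, adjusted p = 0.770) on day 3 and 0.29 (95% interval -0.07 to 0.66, adjusted p = 0.882) on day 7. The highest Pde3b window, 64.7 kb into the gene (chr7:114479862-114480063), likewise held overlapping values, with 30.5, 28.3 and 24.0 CPM in R26WT and 24.6, 26 and 27.2 CPM in R26TIR1(F74G) on day 7 and a log2 fold change over both days of -0.10 (95% interval -0.28 to 0.09, adjusted p = 0.906).

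Averaged over the windows assigned to Pde3b, inside and upstream of the gene, the genotypes did not overlap on day 3 but did on day 7. The mean over its 47 windows was 3.58, 3.81, 3.74 and 3.95 CPM in the R26WT mice and 2.96, 3.34, 3.13 and 3.48 CPM in the R26TIR1(F74G) mice of day 3. Every R26TIR1(F74G) mouse thus lay below every R26WT mouse, with a log2 ratio of means of -0.22. How many other genes separate in this way was not counted. On day 7 the values were 3.76, 3.67 and 3.09 CPM in R26WT and 3.59, 3.47 and 3.59 CPM in R26TIR1(F74G), and the genotypes overlapped. Window by window, 33 of 46 log2 fold changes were negative on day 3, 26 of 47 on day 7 and 35 of 47 over both days, and only 17 windows were lower on both days while 24 differed in sign between them. In fits limited to all windows averaging at least 50 counts on the day, 15 of 16 Pde3b fold changes were negative on day 3 and 14 of 19 positive on day 7. Unadjusted p was under 0.05 at 7 Pde3b windows on day 3 (15.2%, against 3.62% of all windows) and at 9 over both days (19.1%, against 3.57%), all lower in R26TIR1(F74G). The 9 windows lay in 4 merged regions, 5 of them in one region, and so partly count the same reads. Leaving out each mouse in turn gave 3 to 8 Pde3b windows lower at an unadjusted p under 0.05 on day 3 and 6 to 8 over both days. Without the R26TIR1(F74G) mouse of the shallowest library, 3 of 47 were lower on day 3, beside 10304 of all 238658 windows. Without R26TIR1(F74G) replicate 3, 4 of 46 were, beside 6205 of all 232775 windows. The T cell start-site windows were also lower in R26TIR1(F74G) on day 3, and the 2 lowest Pde3b means (2.96 and 3.09 CPM) came from the shallowest libraries. The part of either in the day 3 difference was not tested.

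The Pde3b windows with the smallest p in the 3 genotype comparisons lay inside the gene, and each was lower in mean in R26TIR1(F74G) in the comparison that named it. The window 1.3 kb from the start (chr7:114416391-114416592) had the smallest p of the gene on day 3. The R26WT mice of day 3 held 4.24, 5.16, 6.35 and 5.37 CPM and the R26TIR1(F74G) mice 2.16, 4.67, 3.5 and 3.22 CPM. All but one R26TIR1(F74G) mouse lay below the lowest R26WT mouse, and the log2 fold change was -0.56 (95% interval -0.95 to -0.18, adjusted p = 0.519). On day 7 the same window held 4.85, 5.81 and 4.35 CPM in R26WT and 3.90, 4.35 and 4.45 CPM in R26TIR1(F74G), with a log2 fold change of -0.27 (95% interval -0.64 to 0.10, adjusted p = 0.897).

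At 19.9 kb from the start (chr7:114435002-114435203) lay the Pde3b window with the smallest p over both days. Day 3 values were 3.20, 2.18, 0.751 and 1.53 CPM in R26WT and 0.719, 0.697, 0.596 and 2.01 CPM in R26TIR1(F74G). Day 7 values were 1.16, 1.92 and 2.10 CPM in R26WT and 0.802, 1.37 and 0.809 CPM in R26TIR1(F74G). All but one R26TIR1(F74G) mouse of day 3 lay below the R26WT mice, and the genotypes overlapped on both days. The log2 fold change over both days was -0.83 (95% interval -1.35 to -0.31, adjusted p = 0.479), on a window of 19.7 counts per library.

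The window 10.9 kb from the start (chr7:114425996-114426197) had the smallest p of the gene on day 7 and the smallest of all members for the interaction of genotype and day. On day 7 the values were 1.03, 1.22 and 1.80 CPM in R26WT and 0.481, 0.834 and 0.455 CPM in R26TIR1(F74G). On day 3 it held 0.866, 0.529, 1.02 and 0.590 CPM in the R26WT mice and 0.899, 1.02, 1.19 and 1.37 CPM in the R26TIR1(F74G) mice. R26TIR1(F74G) was thus lower than R26WT in every mouse on day 7 but higher in mean on day 3, with log2 fold changes of -1.13 (95% interval -1.98 to -0.27, adjusted p = 0.761) and 0.61 (95% interval -0.16 to 1.37, adjusted p = 0.750), and the interaction was -1.74 (95% interval -2.87 to -0.60, adjusted p = 0.663). With 12.9 counts per library this window was among the lowest of the gene.

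**Figure D4:**
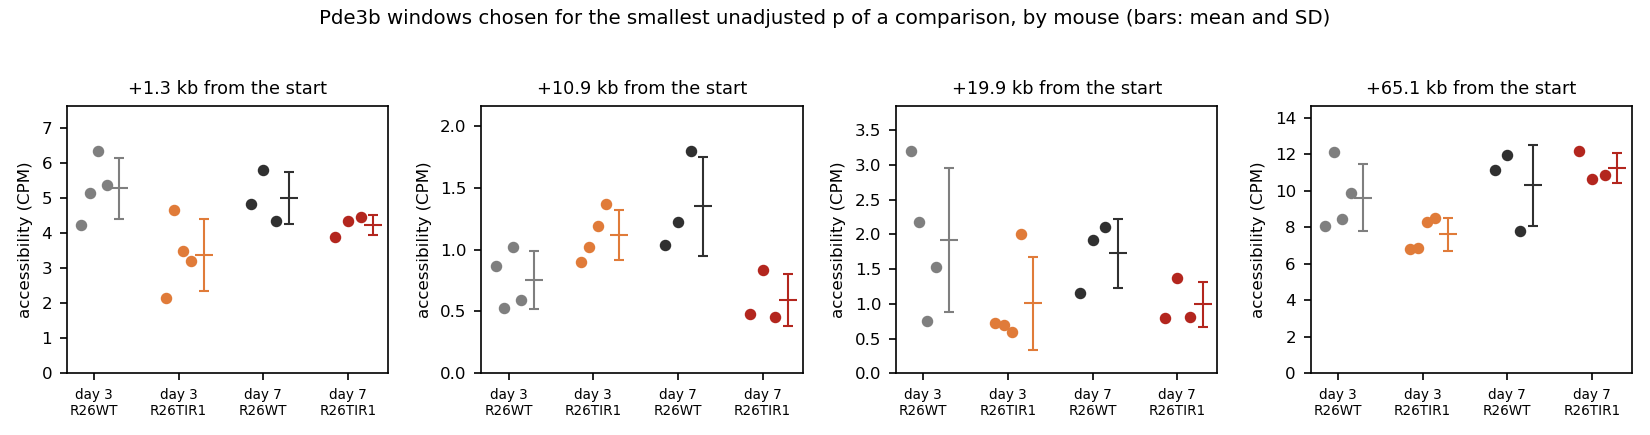
Accessibility (CPM) by mouse of the 4 windows inside Pde3b that had the smallest unadjusted p in one of the comparisons, by distance from the start (+1.3, +10.9, +19.9 and +65.1 kb); points are mice by genotype and day and bars give the mean and SD. R26TIR1(F74G) and R26WT were separated only at +10.9 kb on day 7, with every R26TIR1(F74G) mouse below every R26WT mouse.

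Among the PDE4 genes, Pde4a encodes an isoform found in many immune cells. At its 5-prime end the genotypes overlapped. The R26WT mice of day 3 held 10.0, 11.6, 13.5 and 15 CPM and the R26TIR1(F74G) mice 12.4, 14.3, 6.78 and 10.1 CPM. After 7 days, R26WT mice held 14.6, 12.4 and 12.1 CPM and R26TIR1(F74G) mice 12.6, 12.8 and 12.2 CPM. The lowest value, 6.78 CPM, came from one R26TIR1(F74G) mouse of day 3, and the log2 fold change over both days was -0.15 (95% interval -0.38 to 0.08, adjusted p = 0.867). The highest Pde4a window, -4.1 kb from the start (chr9:21161467-21161668), had -0.03 (95% interval -0.24 to 0.18, adjusted p = 0.982). No Pde4a window reached an unadjusted p under 0.05 in any genotype comparison. The smallest p over both days belonged to the window 6.8 kb into the gene (chr9:21172432-21172633), with a log2 fold change of -0.23 (95% interval -0.47 to 0.00, adjusted p = 0.751). On day 7, every R26TIR1(F74G) mouse (3.26, 3.76 and 4.15 CPM) lay below every R26WT mouse (5.17, 4.77 and 4.35 CPM) at the neighbouring window 6.5 kb into the gene (chr9:21172159-21172360), with a log2 fold change of -0.37 (95% interval -0.76 to 0.01, adjusted p = 0.848). The day 3 window of smallest p, 6.0 kb from the second listed start (chr9:21189978-21190179), had -0.44 (95% interval -1.0 to 0.12, adjusted p = 0.749), and the window at the downstream start -0.18 (95% interval -0.79 to 0.43, adjusted p = 0.959) over both days.

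Pde4b, a PDE4 gene with known roles in T cell receptor and innate immune signalling, had similar values in both genotypes at its open start. Day 3 values were 7.36, 7.34, 6.83 and 7.79 CPM in R26WT and 8.81, 7.19, 6.56 and 7.40 CPM in R26TIR1(F74G). Day 7 values were 8.53, 8.08 and 6.15 CPM in R26WT and 7.54, 7.75 and 9.06 CPM in R26TIR1(F74G). The ranges overlapped on both days and the log2 fold change over both days was 0.03 (95% interval -0.19 to 0.25, adjusted p = 0.985). At its highest window, -63.0 kb from that start and inside the gene (chr4:102506960-102507161), the log2 fold change was -0.13 (95% interval -0.30 to 0.05, adjusted p = 0.848). The lowest p of the gene on day 3 and over both days came from a window 74.1 kb from the first listed start (chr4:102495561-102495762). On day 3 it held 1.64, 1.19, 1.43 and 1.06 CPM in R26WT and 0.360, 0.483, 1.34 and 0.563 CPM in R26TIR1(F74G), a single R26TIR1(F74G) mouse reaching into the R26WT range. Its log2 fold change was -0.87 (95% interval -1.64 to -0.10, adjusted p = 0.616) on day 3 and -0.68 (95% interval -1.22 to -0.14, adjusted p = 0.632) over both days. On day 7 the smallest p was at -49.0 kb (chr4:102520953-102521154), with 5.69, 3.26 and 5.10 CPM in R26WT, 3.42, 3.28 and 3.39 CPM in R26TIR1(F74G) and a log2 fold change of -0.45 (95% interval -0.87 to -0.03, adjusted p = 0.83).

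Pde4d, the largest of the PDE4 genes, carried little accessibility near its start, and its windows leaned the other way from those of Pde3b. On day 3, 35 of 39 log2 fold changes were positive, on day 7 20 of 38, and over both days 31 of 39, with 3 windows higher (7.69%, against 3.16% of all windows) and none lower (against 3.57%) at an unadjusted p under 0.05 over both days. The mean over its windows was 1.38, 1.26, 1.05 and 1.08 CPM in the R26WT mice and 1.26, 1.25, 1.96 and 1.35 CPM in the R26TIR1(F74G) mice of day 3. One R26TIR1(F74G) mouse, at 1.96 CPM, stood apart from the other 3, and without it the R26TIR1(F74G) mean was 1.28 ± 0.0564 CPM (SD, n = 3), against 1.19 ± 0.156 CPM in R26WT (SD, n = 4). Refitted without that mouse, 22 of 31 windows tested were positive on day 3 and 24 of 38 over both days. Over both days, 1 was higher at an unadjusted p under 0.05. Only 31 of the 39 windows still averaged 10 counts on day 3 without that mouse. The rest passed the count filter only with its counts, so 35 of 39 partly reflects this mouse. Most Pde4d windows held few counts, 14.5 per library in the median.

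The Pde4d window 13.1 kb into the gene (chr13:108667173-108667374) had the smallest p of the gene in all 3 genotype comparisons and the smallest adjusted p of any member over both days. On day 3 it held 1.21, 0.595, 0.956 and 1.36 CPM in the R26WT mice and 2.52, 1.29, 1.79 and 1.61 CPM in the R26TIR1(F74G) mice. On day 7 the values were 0.646, 0.581 and 1.05 CPM in R26WT and 1.12, 1.61 and 1.21 CPM in R26TIR1(F74G). Every R26TIR1(F74G) mouse lay above every R26WT mouse on day 7, and all but one did on day 3. The log2 fold change was 0.79 (95% interval 0.30 to 1.28, adjusted p = 0.469) over both days, 0.89 (95% interval 0.10 to 1.69, adjusted p = 0.814) on day 7 and 0.72 (95% interval 0.07 to 1.37, adjusted p = 0.621) on day 3, so the difference did not pass the threshold. The highest Pde4d window, upstream of the gene at -57.1 kb (chr13:108597022-108597223), held 6.10 ± 1.13 against 5.13 ± 0.389 CPM on day 7 (SD, n = 3 each) and had a log2 fold change over both days of 0.17 (95% interval -0.09 to 0.42, adjusted p = 0.868).

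Pde7a, which encodes a rolipram-insensitive enzyme of T cells, had the most accessible start of the group. The R26WT mice of day 3 held 18.4, 22.8, 26.5 and 23.3 CPM and the R26TIR1(F74G) mice 24.1, 18.3, 19.0 and 22.1 CPM. After 7 days, R26WT mice held 20.8, 21.2 and 17.1 CPM and R26TIR1(F74G) mice 19.8, 20.9 and 21.4 CPM. The genotypes overlapped on both days, with a log2 fold change over both days of -0.06 (95% interval -0.24 to 0.13, adjusted p = 0.956), and they also did at the highest window, 52.6 kb into the gene (chr3:19258598-19258799), with 0.02 (95% interval -0.17 to 0.21, adjusted p = 0.987).

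The adjacent Pde7a window 52.3 kb into the gene (chr3:19258895-19259096) had the smallest p of all members on day 7. On that day it held 8.46, 8.37 and 5.40 CPM in R26WT and 10.6, 9.78 and 11 CPM in R26TIR1(F74G), and on day 3 9.96, 10.3, 7.99 and 7.97 CPM in R26WT and 10.3, 11.4, 10.2 and 9.73 CPM in R26TIR1(F74G). Every R26TIR1(F74G) mouse was above every R26WT mouse on day 7, whereas the genotypes overlapped on day 3. The log2 fold change was 0.44 (95% interval 0.13 to 0.76, adjusted p = 0.724) on day 7 and 0.31 (95% interval 0.10 to 0.53, adjusted p = 0.554) over both days. Upstream of the gene, the window at -28.1 kb (chr3:19339320-19339521) had the smallest p of all members on day 3, with 1.39, 1.06, 1.3 and 1.83 CPM in R26WT and 0.540, 0.644, 0.671 and 0.724 CPM in R26TIR1(F74G). There every R26TIR1(F74G) mouse was lower on day 3, but the genotypes overlapped on day 7 (1.16, 0.756 and 1.65 against 1.39, 1.25 and 0.708 CPM), and the log2 fold changes were -1.08 (95% interval -1.82 to -0.34, adjusted p = 0.518) and 0.01 (95% interval -0.74 to 0.76, adjusted p = 0.999).

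**Figure D5:**
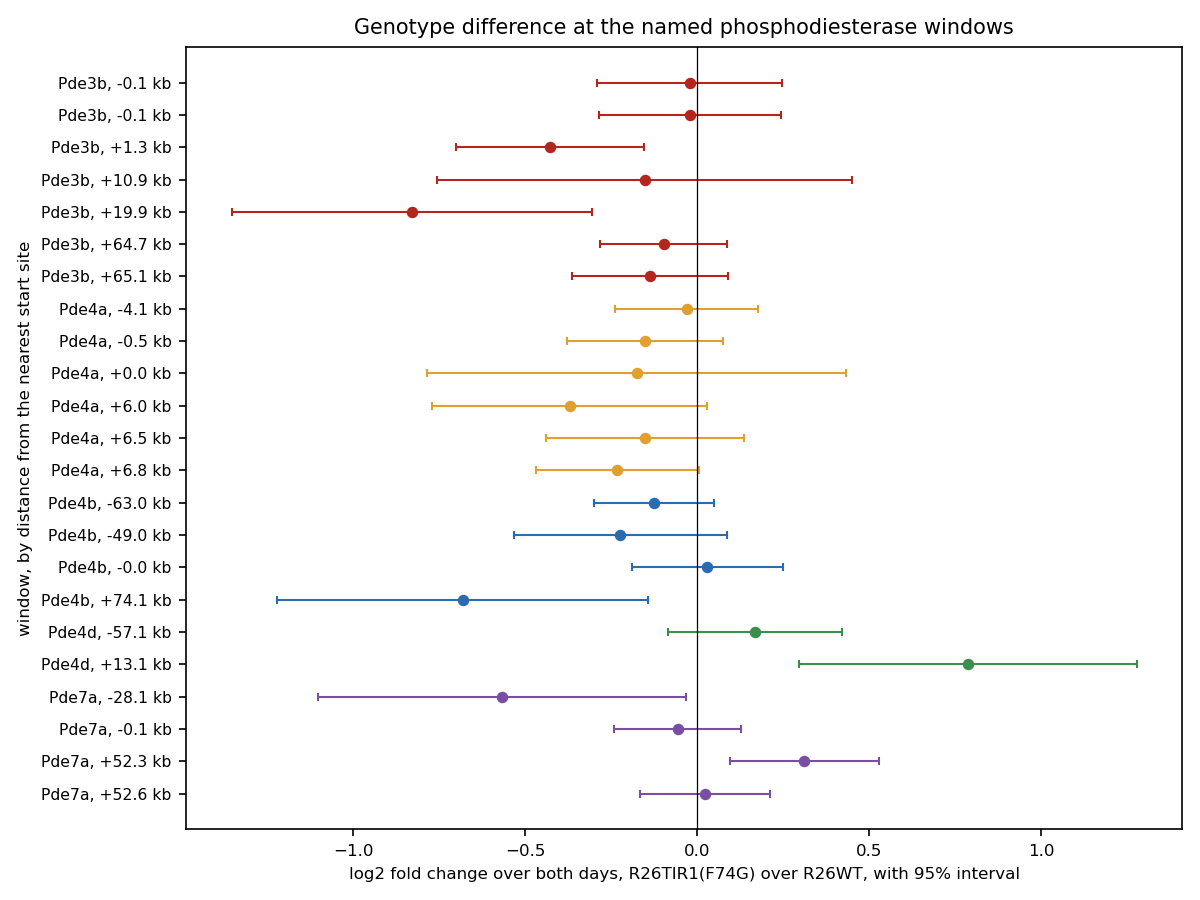
Log2 fold change of R26TIR1(F74G) over R26WT over both days, with its 95% interval, for the named windows of the 5 genes, ordered by gene and by distance from the nearest listed start in kb. At the start-site and highest windows the intervals include 0, and the interval bars are widest at windows of few counts.

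Between day 3 and day 7 no window of the 5 genes passed the threshold within a genotype. In R26WT, edgeR and DESeq2 called 0 of 224 windows, and edgeR called 0.003% of all windows. DESeq2 had 3 members higher and 4 lower unadjusted, beside 2917 and 3264 of all 232991 windows. By edgeR, unadjusted p was under 0.05 at 4 windows higher on day 7 (1.79%, against 2.6%) and 4 lower (1.79%, against 2.65%). The smallest p was at the Pde3b start, in a window that overlaps the one above (chr7:114415017-114415218). It held 6.41, 5.36, 8.47 and 6.55 CPM on day 3 and 5.81, 4.24 and 3.15 CPM on day 7, a log2 fold change of -0.54 (95% interval -0.92 to -0.17, adjusted p = 0.861). In R26TIR1(F74G), both tools called 0 of 230, and edgeR called 0% of all windows. DESeq2 had 3 members higher and 9 lower unadjusted, beside 4112 and 5879 of all 239163 windows. edgeR had 6 higher unadjusted (2.61%, against 2.91%) and 12 lower (5.22%, against 4.05%). The smallest p was again at Pde3b, 65.1 kb into the gene (chr7:114480266-114480467), with 6.83, 6.87, 8.27 and 8.53 CPM on day 3 and 12.2, 10.7 and 10.9 CPM on day 7. All R26TIR1(F74G) mice of day 7 were above those of day 3 at this window, and the log2 fold change was 0.55 (95% interval 0.26 to 0.85, adjusted p = 0.300). The day of treatment and the day of preparation cannot be told apart from these labels.

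A genotype difference that itself changed with the day would appear as an interaction. It was called at 0 of 230 windows by edgeR and DESeq2, where edgeR called 0% of all windows, and edgeR's smallest adjusted p was 0.663. DESeq2 had 2 higher and 9 lower unadjusted, beside 5265 and 6159 of all 240778 windows. By edgeR's unadjusted p, 4 windows had a higher fold change on day 7 than on day 3 (1.74%, against 2.75% of all windows) and 10 a lower one (4.35%, against 3.57%). For Pde3b 31 of 47 interaction terms were positive, and for Pde4d 29 of 39 were negative. Without the R26TIR1(F74G) mouse of day 3 that stood apart for Pde4d, 19 of its terms were positive and 19 negative, and their median went from -0.39 to 0.01. At the Pde3b start the interaction was 0.55 (95% interval 0.04 to 1.07, adjusted p = 0.781).

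The mean level of Pde3b over its windows ranged from 2.96 to 3.95 CPM over the mice. Of 8507 genes compared over the 14 mice, those with the highest Pearson correlation with Pde3b were Brwd1 (r = 0.93), Ppan (0.93), Birc6 (0.93), Rmdn3 (0.92) and Meaf6 (0.92), where the median gene had 0.38 and 95% of genes lay between -0.46 and 0.81. All genes share the depth and background of each library, so these values describe the libraries as well as the genes. Among the members, Pde3b and Pde4a varied together (r = 0.60), and Pde4d ran opposite to both (-0.64 with Pde3b and -0.84 with Pde4a) over the same 14 mice. The R26TIR1(F74G) mouse of day 3 with the highest Pde4d mean (1.96 CPM) also had the lowest Pde4a mean (3.33 CPM). The correlations were not recomputed without it. Pde4b and Pde7a varied together to a lesser degree (0.49).

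Further genes of cAMP signalling were listed by role, 49 in all, and 46 of them had windows by the same rule. edgeR called none of their 966 windows in any of the 6 comparisons. Over both days 40 of the 966 were higher (4.14%) and 30 lower (3.11%) at an unadjusted p under 0.05, against the 3.16% and 3.57% of all windows given above, and the smallest adjusted p was 0.272. For most roles, the start-site window of smallest p is given by its log2 fold change over both days. Among the other phosphodiesterases it belonged to Pde1b, a calmodulin-dependent enzyme, with 0.12 (95% interval -0.10 to 0.34, adjusted p = 0.903). Among the adenylyl cyclases it belonged to Adcy7, a main isoform of lymphocytes, with -0.18 (95% interval -0.41 to 0.05, adjusted p = 0.832).

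Prkaca, a catalytic subunit of protein kinase A, held 42.2 CPM and had -0.17 (95% interval -0.35 to 0.01, adjusted p = 0.756). Rapgef4, which encodes an Epac protein, held 1.59 CPM and had -0.51 (95% interval -0.96 to -0.07, adjusted p = 0.677). Its values on day 7 were 2.0, 2.04 and 1.95 CPM in R26WT and 1.18, 1.07 and 1.32 CPM in R26TIR1(F74G), without overlap, while on day 3 the genotypes overlapped. Crtc1, a coactivator of CREB, had -0.23 (95% interval -0.41 to -0.05, adjusted p = 0.629), and Entpd1, the ectonucleotidase CD39 that begins the production of adenosine, had 0.20 (95% interval -0.10 to 0.51, adjusted p = 0.868). By role, the median log2 fold change over both days ran from -0.06 in the CREB family and coactivators to 0.05 in adenosine production and cAMP export, against 0.00 for all windows.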

How the data were processed

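ATAC-seq libraries of Treg cells from 14 mice were compared. The authors deposited raw read counts per window, made with Bowtie2 alignment, MACS2 peaks merged into one atlas, and featureCounts (coordinates as mm10, that is GRCm38), without normalisation. No column lacked a match to a labelled sample.

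Counts were fitted across all 240778 windows with edgeR (version 4.0.16, quasi-likelihood test, TMM scaling) in R 4.3.3, keeping windows that averaged 10 or more counts over the libraries of a comparison. P-values were adjusted by Benjamini-Hochberg and called under 0.05. The 6 comparisons were genotype on day 7, genotype on day 3, genotype over both days in one fit with a day term, their interaction, and day within each genotype. DESeq2 1.42.0, other scalings and filters, a replicate block, start sites limited to gene 5-prime ends, gene bodies and leaving out each mouse were the alternatives. Levels are CPM, that is counts scaled to TMM library size. P-values weigh the difference between groups against the spread between these samples, which is estimated with information shared across windows. The labels do not name litters. Same-numbered mice of the 2 genotypes did not deviate together (correlations -0.0685 to 0.0666), so no pairing was used. The fits were tested on simulated data.

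Start sites were those of RefSeq (GRCm38.p6), alternative starts included, a choice made after window positions were seen. Alternative starts were available only for genes with promoter entries. Pde3b and Pde7a had none, so the 5-prime end was their only start. Named windows were, per gene, the start-site window, the window of highest mean count and the window of smallest p in each genotype comparison, plus the smallest p of all members in the other comparisons. The window at the Pde4a 5-prime end and a window inside the Pde4d gene body were added after their values were seen. The reference genome at hand is of another build and was not used. The members and gene lists were chosen with earlier results of these data known. The start-site window of one receptor gene is not reported here.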

Additional observations from a re-analysis of the deposited data

Results flagged for a closer look

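Of 72 groups of 4 mice examined, 4 had a mouse that stood further from the other 3 than Dixon's 95% critical value allows. Chance alone gives this in about 1 of 20 groups. At the Pde3b window 19.9 kb from the start, one R26TIR1(F74G) mouse of day 3 held 2.01 CPM against 0.596 to 0.719 CPM in the others. The same mouse held 1.37 CPM at the downstream Pde4a start, against 0.376 to 0.540 CPM in the others. The mean over the Pde4b windows was 3.59 CPM in one R26WT mouse of day 3, against 3.86 to 3.90 CPM in the others. For Pde4d the corresponding mean was 1.96 CPM in one R26TIR1(F74G) mouse of day 3, against 1.25 to 1.35 CPM in the others.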

How the results depend on the processing

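The count of member windows past the threshold was 0 in all 6 comparisons and stayed 0 in each of the 131 recomputations. These covered DESeq2, other scalings and filters, other start sites, a threshold of 0.1, leaving out each mouse, and gene bodies in the fit used above. Over gene bodies, 1 window passed over both days by DESeq2, with total counts, with a minimum of 50 counts and with loess offsets, with or without the replicate block. Of 633 recomputed log2 fold changes of named windows, 603 kept their direction and their side of the threshold, 5 passed it (all of them at the window inside the Pde4d gene body) and 25 changed sign, all close to 0. For the comparison over both days, the Pde3b start went to 0.012 with total counts and 0.018 with a minimum of 50 counts, the Pde7a start to 0.0035 with loess offsets, and the highest Pde4a window to 0.030 with loess offsets and 0.0014 with a minimum of 50 counts. The highest Pde3b window on day 3 went to 0.035 with loess offsets. Leaving out one mouse moved the log2 fold change over both days between -0.086 and 0.077 at the Pde3b start, -0.012 and 0.058 at the Pde4b start, -0.031 and 0.085 at the highest Pde7a window and -0.090 and 0.042 at the highest Pde4a window. With the replicate number as a block, member calls stayed at 0, and with loess offsets added to the block the same windows went to 0.0063 (Pde7a start), 0.038 (highest Pde3b window, day 3) and 0.036 (highest Pde4a window); same-numbered mice did not deviate together, so the numbers do not pair them. The cause of these sign changes was not tested. Under the 4 scalings, 30 to 35 of 46 Pde3b windows were lower in R26TIR1(F74G) on day 3 and 34 to 35 of 39 Pde4d windows higher. Numbers of windows at an unadjusted p under 0.05 moved with the setting, from 3 to 18 over both days, 2 to 20 on day 3 and 2 to 17 on day 7. The lowest counts over both days and on day 3 came with a minimum of 50 counts. Only 73 and 67 members were tested there, and 7198 of all 66750 and 5167 of all 62231 windows were under 0.05. The lowest count on day 7 came from DESeq2, with 228 members tested and 6367 of all 237811 windows under 0.05.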

Other observations

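Most of the Pde4d gene body lies beyond the 100 kb limit used here. Inside the bodies of the 5 genes lay 190 windows that were not assigned to them, 166 of these in Pde4d. One of them, at chr13:109837987-109838188, was picked after its values were seen, because it had the smallest p over both days of all 190. Its nearest listed start, 442.1 kb away, is that of Rab3c, which encodes a small GTPase. On day 3 it held 8.66, 10.6, 10.0 and 8.38 CPM in the R26WT mice and 18.0, 12.1, 13.1 and 11.1 CPM in the R26TIR1(F74G) mice. On day 7 it held 10.5, 8.72 and 6.15 CPM in R26WT and 11.5, 14.1 and 13.2 CPM in R26TIR1(F74G). Every R26TIR1(F74G) mouse was above every R26WT mouse on each day. By edgeR's quasi-likelihood test the log2 fold change over both days was 0.52 (95% interval 0.30 to 0.74, adjusted p = 0.0873), which misses the threshold. The adjusted p was 0.0049 by DESeq2, 0.0233 with total counts as library sizes, 0.0114 with loess offsets, 0.0158 with loess offsets and a replicate block and 0.0111 among windows of at least 50 counts. It was 0.0849 with DESeq2 size factors in edgeR, 0.161 with the replicate block alone, 0.104 with the prefix of the mouse names as a term, and between 0.0885 and 0.2563 when one mouse was left out. The log2 fold change stayed between 0.45 and 0.58 under all of these.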
